A study of Mus musculus with 2 samples.

Results

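Meis1, Hhex and Myb encode transcription factors of early blood cells, and the stretches of chromosome around them were examined here for binding of Scl in HPC-7 cells. The 3 loci were fixed by position in build mm9: chr11:18700001-19000000 for Meis1, chr19:37450001-37570000 for Hhex and chr10:20800001-21020000 for Myb, 640 kb in all. They held 1468 of 5632119 distinct reads in sample 1 and 1064 of 4150610 in sample 2. Of the regions called as enriched, 4 of 1619 in sample 1 and 3 of 840 in sample 2 lay there.

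HPC-7 is a mouse line of early blood progenitors, derived per the labels from embryonic stem cells and grown in medium conditioned with stem cell factor. The labels name no treatment and no genotype. Scl-bound chromatin was immunoprecipitated once after fixing in 0.4% formaldehyde and shearing to 200 to 500 bp, and its DNA was sequenced as 3 portions. Lanes 7 and 8, the latter loaded with 2 times the DNA, are joined as sample 1, and the portion read at another site is sample 2. There is 1 group, no control library was used here, and all intervals and p-values cover counting error between portions of 1 immunoprecipitation.

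Scl (Tal1) belongs to the basic helix-loop-helix factors. It binds E-box sequences with a class I partner and in blood cells is often held in a complex with Lmo2, Ldb1 and a GATA factor. Meis1 is a TALE homeodomain protein that binds DNA with HOX and PBX partners and sustains blood stem cells. Hhex is a homeodomain protein, largely a repressor, of endothelium, early blood, liver and B cell progenitors. Myb drives the proliferation of immature blood cells and falls as they mature, and the intergenic stretch between Myb and Hbs1l is known for its distal enhancers.

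The data show 1 site within Meis1, 1 site at Hhex and 2 sites upstream of Myb. Motifs found in the covered bases differed from site to site, and so did coverage. Reads of sample 2 covered 43.5% of the middle 200 bp at the near Myb site and 93.5% at the far one. A difference in motifs cannot be told apart from a difference in coverage. Sequences of these sites are given first. They are read from the sample 2 reads in build mm8, plus strand, with each base that the aligner listed as a mismatch set back to the genome base. The listed positions were taken to run along the plus strand for reads of either strand, which the deposited read-me does not state. With this reading, reads disagreed at 0.620% of covered bases, a share that includes bases with only 1 read, which cannot disagree. The share under the other reading is not given, so this value does not decide between them. Capitals mark 4 motif groups on either strand: GATA sites (AGATA with a further A or G, or else TGATA with a further A or G), E-boxes (CANNTG), ETS cores (AGGAA with a further A or G, or else CGGAA with a further A or G) and RUNX cores (TGTGGT, or else TGCGGT). The stretches shown are unbroken runs of covered bases near the middle of each site, but not all such runs. Further Meis1 runs, chr11:18870019-18870080 and chr11:18870178-18870250, are longer than the one shown. They held no match to the 4 groups and are not printed.
Meis1, chr11:18870122-18870169: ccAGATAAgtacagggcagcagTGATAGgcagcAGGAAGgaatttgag
Hhex, chr19:37500792-37500871: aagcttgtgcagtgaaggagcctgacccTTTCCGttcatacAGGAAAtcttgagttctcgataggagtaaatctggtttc
Hhex, chr19:37500895-37501013: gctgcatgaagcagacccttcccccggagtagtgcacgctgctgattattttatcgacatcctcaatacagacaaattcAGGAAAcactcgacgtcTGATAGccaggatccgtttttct
Myb near site, chr10:20886090-20886176: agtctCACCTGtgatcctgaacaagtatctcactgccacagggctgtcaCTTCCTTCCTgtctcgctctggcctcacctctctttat
Myb far site, chr10:20918013-20918174: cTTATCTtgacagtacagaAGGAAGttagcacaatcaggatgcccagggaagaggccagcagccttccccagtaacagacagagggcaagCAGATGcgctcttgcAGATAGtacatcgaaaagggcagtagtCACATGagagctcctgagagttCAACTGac
Myb far site, chr10:20918181-20918255: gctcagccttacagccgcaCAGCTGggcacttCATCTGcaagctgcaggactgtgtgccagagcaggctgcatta

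The Meis1 stretch carries a pair of GATA sites with an ETS core beside them. AGATAA and TGATAG are 14 bases apart, and AGGAAG follows TGATAG after 5 bases. At Hhex the second stretch holds an ETS core, AGGAAA, followed after 11 bases by TGATAG, while the first holds 2 ETS cores, 1 of them beyond 100 bp from the middle, and no GATA site. The far Myb site is the only one of the 4 with both E-boxes and GATA sites in its covered bases. There the E-box CAGATG lies at the middle of the site and is followed after 9 bases by AGATAG.

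Each library was read at low depth. Distinct reads, meaning reads with their own start and strand, made up 94.8% of sample 1 and 96.6% of sample 2. The genome average was 2.96 of them per kb in sample 1, or 0.593 in 200 bp, and 2.18 per kb in sample 2, or 0.437 in 200 bp. Expected reads were taken from the genome average or, where higher, from the 10 kb centred on the window, its own reads included. Folds against the 10 kb are therefore understated, most where a site holds much of its reads. Ranks by fold carry this too, and intervals of fold treat the expected number as exact. Calling a window took an adjusted p under 0.01 over all windows (exact Poisson, one-sided), 5-fold enrichment or more, and no strand with under 20% of the reads. Windows called over the whole genome came to 0.0107% in sample 1 and 0.00633% in sample 2. Windows overlap, so a region gives several, and such shares are not rates of separate sites. The whole-genome share uses the effective genome length, while the shares given below for each locus use its full length.

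**Figure D1:**
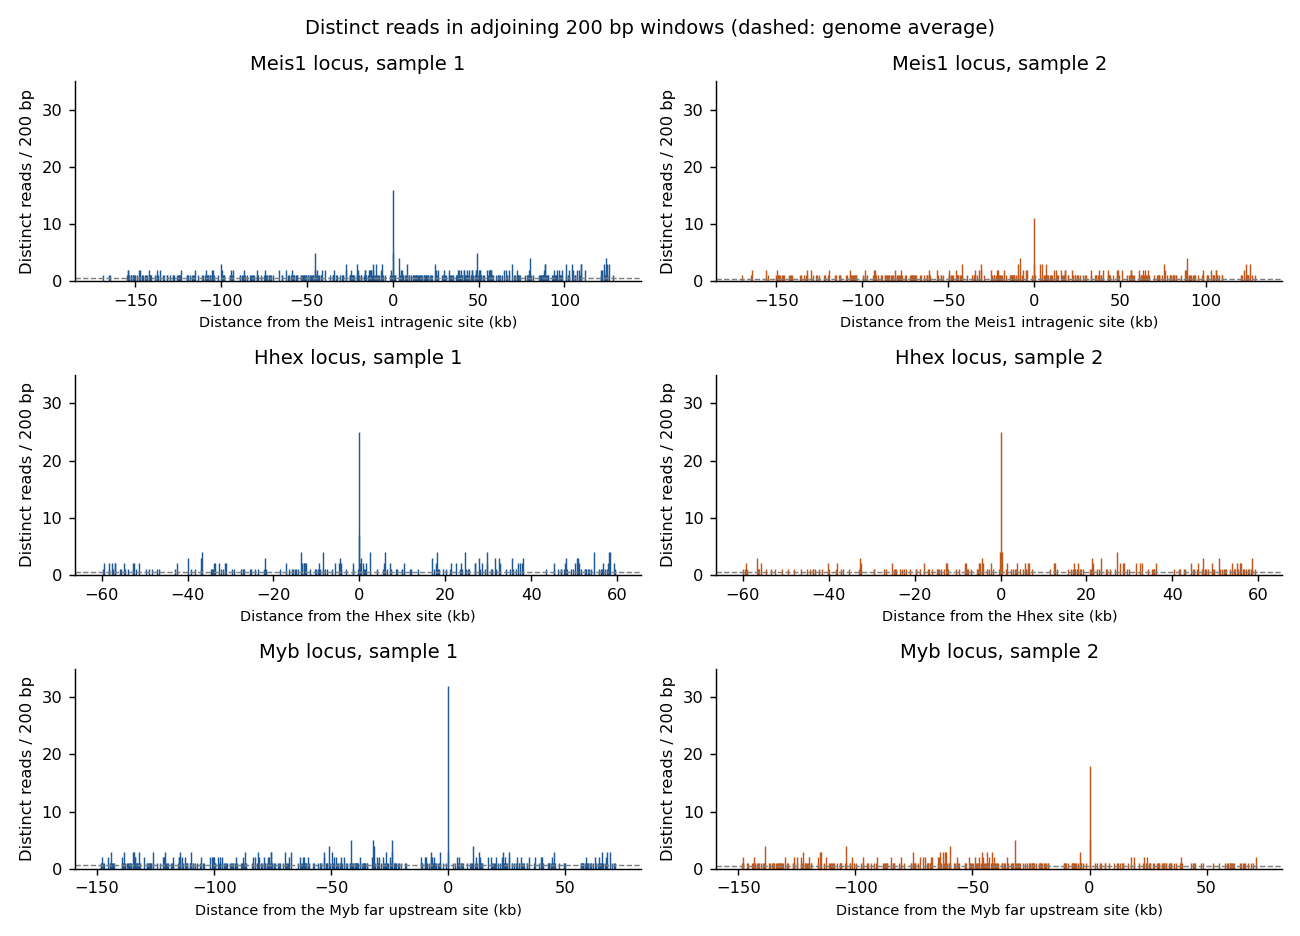
Distinct reads in adjoining windows of 200 bp (y axis) across the Meis1, Hhex and Myb loci, by distance in kb from the site with the most reads (x axis), in sample 1 (left) and sample 2 (right); the dashed line is the genome average of 0.593 or 0.437 reads. Each locus has 1 tall peak at the same place in both samples, and distance increases along the chromosome, so upstream of Meis1 and Myb is to the right.

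The Meis1 site lay inside the gene. The definition of the locus places Meis1 on the minus strand at about 18780000 to 18920000 in mm9, and the summit at 18870101 is then 49.9 kb downstream of its start, a distance no more exact than that start. Whether this is exon or intron was not determined here. In sample 1 the best 200 bp window held 16 distinct reads (exact Poisson 95% interval 9.15 to 26.0), 9 on the plus and 7 on the minus strand. In sample 2 it held 11 (5.49 to 19.7), 3 on the plus and 8 on the minus strand.

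Against the 10 kb around it, Meis1 was enriched 21.1-fold in sample 1 (exact Poisson 95% interval 12.03 to 34.2, adjusted p = 1.11e-11) and 19.6-fold in sample 2 (9.81 to 35.1, adjusted p = 7.63e-07). The intervals of both samples overlap widely. The called region ran from 18869951 to 18870350 in mm9 and from 18869951 to 18870300 in mm8, where positions at this locus happen to be the same in both builds. It was the only region called in the 300 kb. Windows called at the locus came to 0.0833% in sample 1 and 0.0667% in sample 2. Among all stretches of 300 kb into which the genome was cut, 14.8% in sample 1 and 8.04% in sample 2 held a region, so a single region in a stretch of this length is not rare.

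No further window of the Meis1 locus had 5 reads in one sample and 2 in the other. Around the given start of Meis1, 5 kb held 21 reads in sample 1 (exact Poisson 95% interval 13.0 to 32.1) where the genome average gives 14.8, and 9 in sample 2 (4.12 to 17.1) where it gives 10.9. The best window there, at 18919201 to 18919400 in mm9, held 5 reads in sample 1 at 7.81-fold (exact Poisson test, adjusted p = 0.333). Enrichment at the start of Meis1 was therefore not detectable at this depth.

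The Hhex site was called in both samples and had nearly equal read numbers in them despite the lower depth of sample 2. The best window of sample 1, 37510201 to 37510400 in mm9, held 25 reads (exact Poisson 95% interval 16.2 to 36.9), 10 on the plus and 15 on the minus strand. The best window of sample 2, 37500801 to 37501000 in mm8, held 27 reads (17.8 to 39.3), 14 on the plus and 13 on the minus strand. Enrichment was 20.5-fold in sample 1 (13.3 to 30.2, exact Poisson test, adjusted p = 2.29e-19) and 23.3-fold in sample 2 (15.3 to 33.9, adjusted p = 2.23e-22).

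The Hhex region was 450 bp wide in each sample. It spanned 37510051 to 37510500 in mm9 (mm8: 37500701 to 37501150) and was the only one called in the 120 kb. Of all stretches of 120 kb, 6.53% in sample 1 and 3.44% in sample 2 held a region. Windows called at the locus came to 0.25% in each sample. The position of Hhex itself in mm8 or mm9 was not used here, but a neighbour could be placed in mm8 by its sequence. The start of Kif11, the gene of a mitotic kinesin next to Hhex, was placed by 1 read at 37441526, which puts the Hhex site 59.4 kb beyond it. On the other side the start of the lncRNA gene Gm32294, placed by 2 reads at 37558743, lay 57.8 kb beyond the site.

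Below the threshold, the Hhex locus had 1 further window with reads in both samples, starting at 37568501 and ending at 37568700 in mm9 (mm8: 37559155 to 37559354). It held 6 reads in sample 1 at 8.33-fold and 3 reads in sample 2 at 5.36-fold. Neither passed (exact Poisson test, adjusted p = 0.180 and 1.0).

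Myb had 2 sites, both upstream of the gene on the side of Hbs1l. The definition of the locus places Myb on the minus strand at about 20845000 to 20881000 in mm9. The far site, 67.5 kb upstream of that start, was the strongest of the 4 in sample 1. Its best window there, 20948401 to 20948600 in mm9, held 32 reads (exact Poisson 95% interval 21.9 to 45.2), 15 on the plus and 17 on the minus strand. In sample 2 the best window, 20918001 to 20918200 in mm8, held 17 reads (9.90 to 27.2), 8 on the plus and 9 on the minus strand.

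Enrichment at the far Myb site was 30.8-fold in sample 1 (exact Poisson 95% interval 21.0 to 43.4, adjusted p = 9.34e-31) and 24.3-fold in sample 2 (14.1 to 38.9, adjusted p = 2.19e-13). The region ran from 20948301 to 20948700 in mm9 and from 20917901 to 20918350 in mm8. It was called under each alternative setting run in each sample, lane 7 alone included.

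The near Myb site, 35.6 kb upstream, was much weaker and was called in sample 1 only. Its window in sample 1, 20916501 to 20916700 in mm9, held 8 reads (exact Poisson 95% interval 3.45 to 15.8) at 13.3-fold (adjusted p = 0.00237). In sample 2 the window at 20886001 to 20886200 in mm8 held 5 reads (1.62 to 11.7) at 11.4-fold, which did not pass (exact Poisson test, adjusted p = 0.262). The folds of both samples overlap within their intervals, 5.76 to 26.3 and 3.72 to 26.7, so a difference between the samples was not detectable. The sample 1 call rests on few reads: without the read end found in both samples 7 reads were left and the adjusted p was 0.0173 by the exact test.

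With the near site counted, sample 1 had 2 called regions in the 220 kb of the Myb locus, and 1.69% of stretches of that length held 2 or more, while 11.3% held 1 or more. The second region was lost under 4 alternatives, which leave the far site alone. Sample 2 had 1 region, and 6.07% of its stretches held 1 or more. Windows called at the Myb locus came to 0.136% in each sample. At the given start of Myb no peak was seen: 5 kb held 11 reads in sample 1 (exact Poisson 95% interval 5.49 to 19.7, 14.8 at the genome average) and 9 in sample 2 (4.12 to 17.1, 10.9 at the genome average).

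Further windows below the threshold lay on both sides of Myb. At 20906751 to 20906950 in mm9, 25.9 kb upstream, sample 1 had 6 reads at 10.1-fold and sample 2 had 3 reads at 4.69-fold (exact Poisson test, adjusted p = 0.0876 and 1.0). At 20809651 to 20809850 in mm9, beyond the 3′ end of Myb, sample 1 had 2 reads at 3.37-fold and sample 2 had 5 reads at 11.4-fold (adjusted p = 1.0 and 0.262 by the exact test).

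In RefSeq's promoter table (GRCm38.p6), which gives 300 bp around each start, the sequences of Meis1, Hhex and Myb contained 0 reads of sample 2 each. A count of 0 allows up to 3 reads, and the genome average gives 0.655 reads in 300 bp, so this depth cannot tell an empty promoter from an average one. Only reads lying wholly in the sequence and matching it were counted, while 0.655 takes in every read starting there. It is therefore too high for this count. Of all 27025 genes in the table, 50.5% had 0 reads.

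The layout of the reads was examined next, since fragments around a bound site give plus-strand ends to the left and minus-strand ends to the right of it. Within 300 bp of the summit, the median minus end lay to the right of the median plus end at all 4 sites in both samples. The distance was 182.5 and 117 bp at Meis1 in samples 1 and 2, and 160 and 129 bp at Hhex. It was 151.5 and 163.5 bp at the far Myb site, and 195 and 73 bp at the near Myb site, where sample 2 had only 5 reads. The fragment length estimated from all reads was 119 bp in each sample. Sites were picked after each read was moved 59 bp along its strand, and called windows needed reads of both strands. This order of the ends is therefore largely built into the choice of sites and is not separate support for binding.

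**Figure D2:**
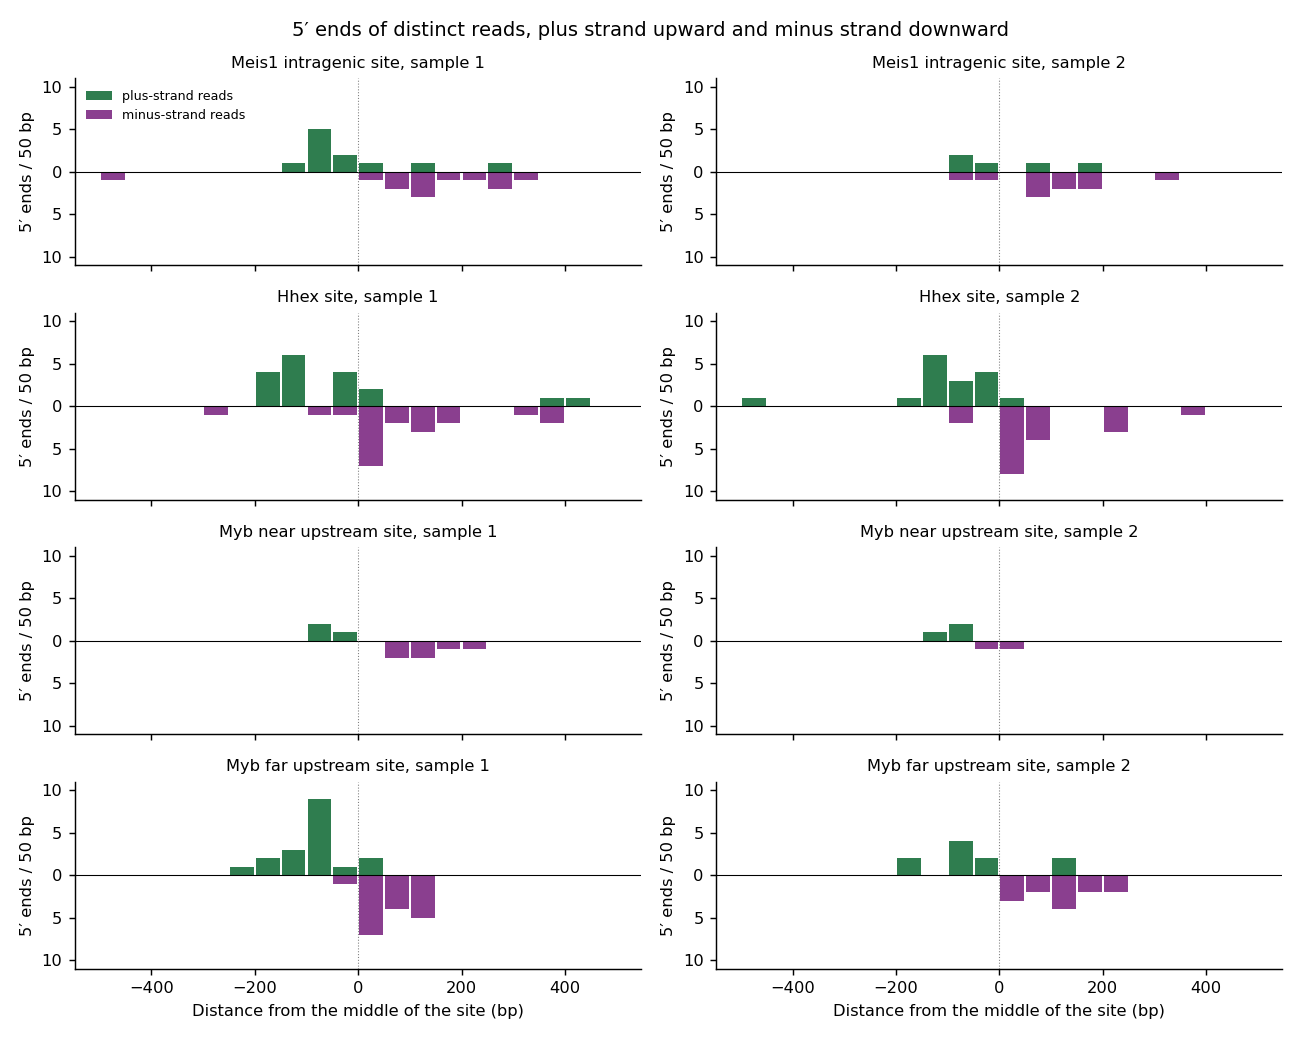
Number of 5′ ends of distinct reads per 50 bp (y axis; plus strand upward in green, minus strand downward in purple) by distance in bp from the middle of each site (x axis), in sample 1 (left) and sample 2 (right). Plus-strand ends lie mostly to the left and minus-strand ends mostly to the right, and the near Myb site has the fewest reads.

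Few read ends were found in both samples. Within 300 bp of the middle, 1 of 14 ends of sample 2 at Meis1 was also an end of sample 1, 4 of 32 at Hhex, 1 of 5 at the near Myb site and 2 of 23 at the far Myb site. Repeated reads were also few. At the far Myb site 37 reads of sample 1 had 35 distinct starts, and 24 reads of sample 2 had 23. At Hhex the numbers were 35 and 33 in sample 1, and 33 and 32 in sample 2.

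The split of reads between the portions was then compared with that of the whole libraries, in 400 bp around each site. Of all distinct reads, 57.6% came from sample 1. At Meis1 sample 1 gave 18 and sample 2 gave 13 reads, a sample 1 share of 58.1% (exact binomial 95% interval 39.1 to 75.5, two-sided exact binomial p = 1.0). At Hhex each sample gave 32 reads, a share of 50% (37.2 to 62.8, p = 0.255 by the same exact test). At the near Myb site the numbers were 9 and 5 (64.3%, 35.1 to 87.2, exact p = 0.789), and at the far Myb site 35 and 22 (61.4%, 47.6 to 74.0, exact p = 0.594). These p-values are not adjusted, and no departure from the library split was detected at any site. The near Myb site was named through its sample 1 call alone, made on reads that are also split here. With so few reads besides, its test cannot show whether the samples differ there.

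Between the lanes of sample 1, lane 7 held 28.6% of distinct reads. It gave 2 of 18 reads at Meis1, 11 of 32 at Hhex, and 7 of 35 at the far Myb site. Per 1000000 distinct reads, Hhex had 6.73 in lane 7, 5.14 in lane 8 and 7.71 in sample 2. Meis1 had 1.22, 3.92 and 3.13, and the far Myb site had 4.28, 6.86 and 5.30. The near Myb site was lowest or tied for lowest in each portion, with 1.22, 1.96 and 1.20. The order of Hhex and the far Myb site differed between portions, and their intervals overlap in each. Two-sided exact binomial tests of the lane split gave unadjusted p = 0.121 at Meis1, 0.441 at Hhex, 0.734 at the near Myb site and 0.349 at the far Myb site, none passing after adjustment over all sample 1 regions, of which 0.185% passed. Meis1 was not called in lane 7 alone, where its best window held 2 reads.

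**Figure D3:**
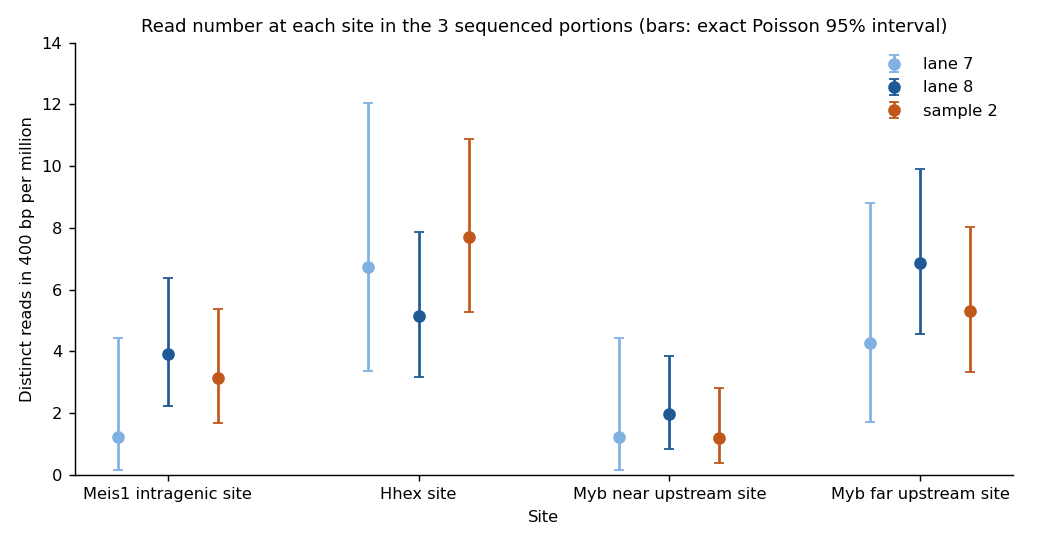
Distinct reads in 400 bp around each site per 1000000 distinct reads (y axis) in lane 7, lane 8 and sample 2, with exact Poisson 95% intervals as bars. At each site the intervals of the 3 portions overlap, and values run from 1.20 at the near Myb site to 7.71 at Hhex.

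Set among all called regions, the far Myb site ranked 102 of 1619 by reads in the best window and 22 by fold in sample 1, and 183 and 84 of 840 in sample 2. Hhex ranked 164 by reads and 132 by fold in sample 1, and 81 and 97 in sample 2. Meis1 ranked 359 by reads and 119 by fold in sample 1, and 366 and 180 in sample 2. The near Myb site had 8 reads, and 0% of called regions in sample 1 had fewer. The median called region had 10 reads at 12.5-fold in sample 1 and 11 reads at 15.9-fold in sample 2, so Meis1, at 11 reads, was at the median by reads in sample 2.

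**Figure D4:**
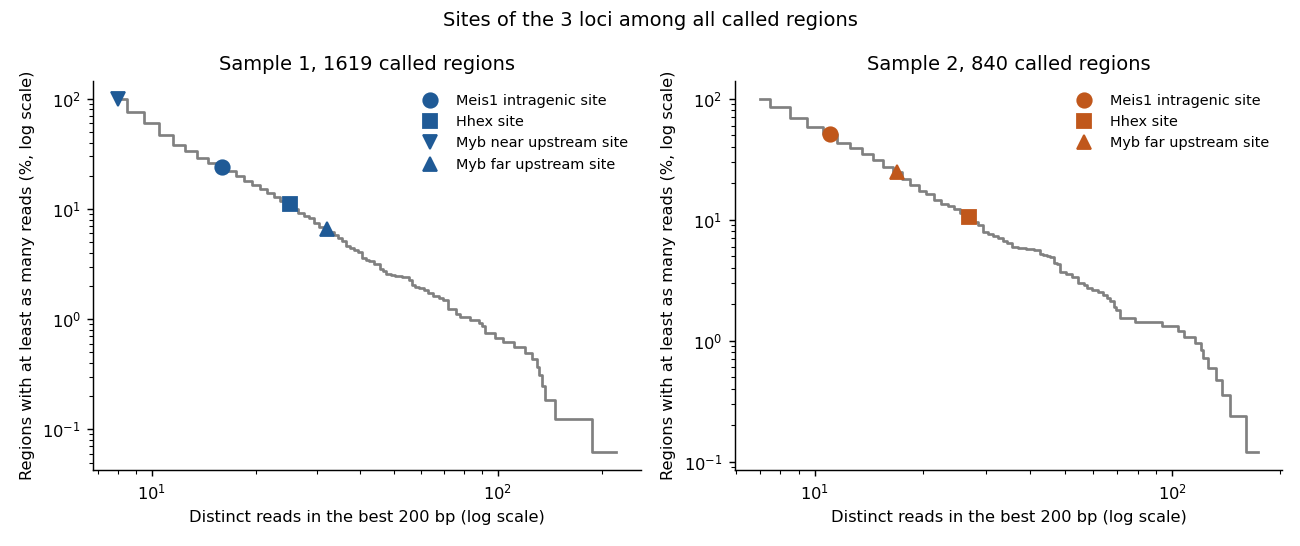
Share of called regions with at least as many distinct reads (y axis, log scale) against reads in the best 200 bp window (x axis, log scale) in sample 1 (left, 1619 regions) and sample 2 (right, 840 regions), with the sites of the 3 loci as markers. The far Myb site and Hhex lie in the upper part of the range with 32 and 25 reads in sample 1, and the near Myb site lies at the lower end with 8.

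Over the whole Meis1 locus, its site included, the density was 0.636 times the genome average in sample 1 (exact Poisson 95% interval 0.585 to 0.691) and 0.601 times in sample 2 (0.543 to 0.664). The Myb locus stood at 0.874 times (0.804 to 0.949) and 0.834 times (0.755 to 0.920), and Hhex at 0.933 times (0.836 to 1.04) and 1.03 times (0.907 to 1.16). The order Meis1, Myb, Hhex was the same in both samples. For the genome average, reads were divided by the effective genome length, but for a locus by its full length. The median stretch of 300 kb, also taken at full length, held 1.91 and 1.45 reads per kb in samples 1 and 2. Both lie below the genome averages of 2.96 and 2.18. A density below the genome average is therefore not by itself a sign of depletion. Set against all stretches of its own length, Meis1 was near the middle, with 50.4% of stretches denser in sample 1 and 55.0% in sample 2. Hhex stood higher, with 29.8% and 24.0% of stretches denser, and Myb lay between, with 33.8% and 36.6%. Without the reads within 500 bp of its site, Hhex still had 2.47 and 1.97 reads per kb, above the medians of 1.87 and 1.43 for stretches of 120 kb. Myb without its sites had 2.41 and 1.71, and Meis1 had 1.82 and 1.26. Reads within 500 bp of a site made up 3.89% and 4.06% of those of the Meis1 locus, 11.4% and 12.6% at Hhex, and 7.72% and 6.98% at Myb, in samples 1 and 2.

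The motifs in 100 bp each side of the middle were then counted in the covered bases and set beside all 840 sample 2 regions treated the same way. Reads covered 66.5% of these bases at Meis1, 81.5% at Hhex, 43.5% at the near Myb site and 93.5% at the far Myb site, against a median of 70% over all regions. A GATA site was present in 40.2% of the regions. Meis1 and the far Myb site had 2 each, Hhex had 1, and the 87 covered bases of the near Myb site held none. In the middle 200 bases of all RefSeq promoters 21.4% held one. Promoters were searched in complete sequence and regions only in covered bases. For each motif the share of regions is therefore understated beside that of promoters.

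An E-box was found in 56.3% of regions, in covered bases only, and in 58.2% of promoters, in full sequence. Within 100 bp of its middle the far Myb site held 4, from CAGATG in the middle over CACATG, next CAACTG, to CAGCTG at the edge, and the near Myb site held 1, CACCTG. The covered bases of Meis1 and Hhex held none, which left part of each window unread. CAGCTG occurs in 16.5% of regions and 10.9% of promoters.

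The ETS core was present at all 4 sites, once at Meis1 and at the far Myb site and 2 times at Hhex and at the near Myb site, where the matches overlap. It is a common sequence, found in 45.4% of regions and 50% of promoters. The RUNX core, found in 21.7% of regions and 15.0% of promoters, had no match in the covered bases of any of the 4. An E-box with GATA 7 to 9 bases after it, a spacing known for the Scl complex and present in 7.02% of regions and 1.07% of promoters, had no match either. At the far Myb site the E-box CAGATG stands 9 bases before the match AGATAG, whose GATA begins 1 base later. These matches are descriptions of letters and do not show which protein was bound.

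**Figure D5:**
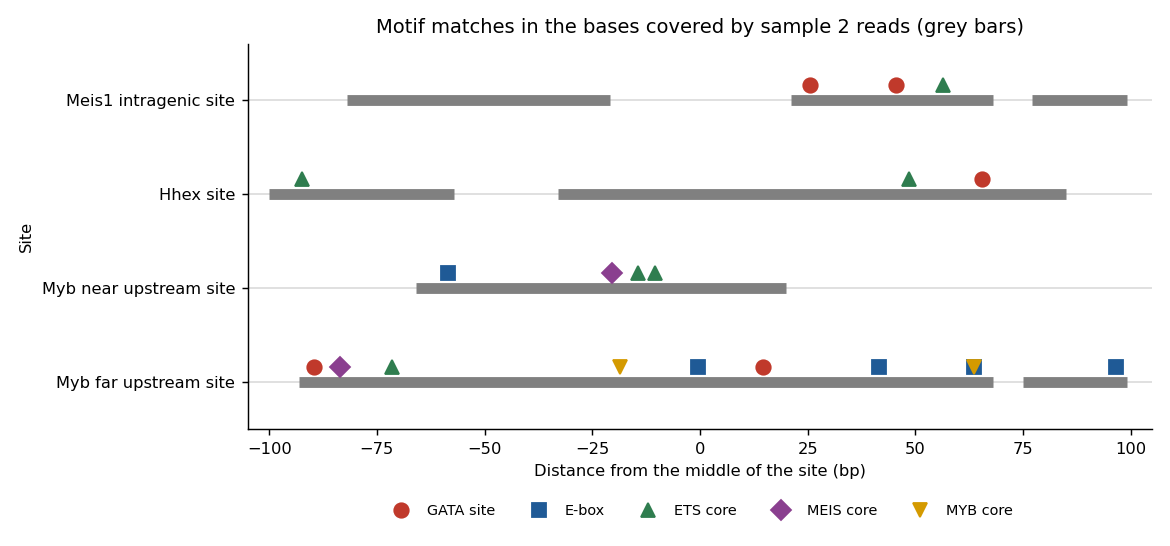
Motif matches (markers) by distance in bp from the middle of each site (x axis), with the bases covered by sample 2 reads as grey bars, for the 4 sites (y axis). GATA matches are seen at Meis1, Hhex and the far Myb site, E-boxes at both Myb sites, and ETS cores at all 4.

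Other genes of the same pathways were looked up where a sample 2 read placed their start in mm8, which needs at least 1 read in the promoter and so leaves many out. Of 13355 genes placed, 5.45% had a called sample 2 region within 50 kb. Of 12 HOX and TALE genes, Meis1 and its relatives and partners, 8 were in the promoter table, 5 were placed and 0 had such a region. The nearest region was 458 kb from Hoxa7 and 467 kb from Hoxa9, the HOX gene best known as a partner of Meis1. Of 7 genes listed with Hhex, 2 were placed and 0 had a region, and of 11 neighbours of the 3 genes 6 were placed and 0 had one. That list leaves out 2 neighbours that were placed within 50 kb of a site called in sample 2: the start of Gm16141 lay 43.2 kb from the Meis1 site, and that of Gm33619 lay 41.7 kb from the far Myb site. Of 10 genes of the Myb list, 2 were placed, and Gfi1, a repressor of progenitor proliferation, had a region 35 kb from its start, while the nearest to Kit, the receptor for stem cell factor, was 1567 kb away. With so few genes placed, the shares of these lists cannot be set against the background.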

How the data were processed

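Scl chromatin immunoprecipitation DNA of HPC-7 cells was sequenced in 3 portions. Per the deposited design text, sample 1 (lanes 7 and 8) was aligned with Solexa software and sample 2 with Eland; builds are mm9 and mm8 per the read-me deposited with the files, while the aligner version is not given in the sources used. Sample 1, as deposited, gives a position, strand and score per read (45 minus the score was taken as mismatches); sample 2, as deposited, lists unique reads with sequence and position. Multiply placed, unplaced and poor-quality reads were not used. Whether sample 1 holds only unique placements is not stated.

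Reads were counted once per start and strand and moved 59 bp, 0.5 times the fragment length. Overlapping 200 bp windows (50 bp steps) were tested as described (effective length 1.9e9 bp, Benjamini-Hochberg over 38000000 windows; windows within 200 bp merged) with Python 3.11.15 and scipy 1.17.1. The scan was tested on simulated reads spread evenly at random with added peaks, which lack the uneven background of real reads. That test therefore cannot show how many calls in the real data are false. The offset search was tested on real sample 1 reads, divided into sets and shifted by a known distance. Loci were placed in mm8 by the offset, within 10 Mb, that made the largest number of read ends coincide: 18, 20 and 22 ends at Meis1, Hhex and Myb, against 8, 7 and 9 at the next best. Each position is given in its own build.

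Sites named are all regions called in either sample at the loci, plus up to 5 further windows per locus with at least 5 reads in one sample and 2 in the other. Promoter sequences and neighbour order are from RefSeq (GRCm38.p6), whose coordinates were not used; reads were matched to them without mismatch. The members and lists were chosen with earlier results of these data known. Alternatives covered repeated reads, background, window, read shift, mismatches, thresholds, strand rule, lanes and each sample alone.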

Additional observations from a re-analysis of the deposited data

How the results depend on the processing

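Hhex and the far Myb site were called under each alternative run, with folds of 13.1 to 42.2 and 16.8 to 54.0 in sample 1, and 13.8 to 61.8 and 16.4 to 38.9 in sample 2; the highest values are against the genome average only. Meis1 was called under all but 1: in lane 7 alone its fold was 11.6 on 2 reads and the locus had 0 regions. The near Myb site lost its sample 1 call, leaving 1 region at the locus, in lane 7 alone (11.1-fold), with reads not moved (8.33-fold), with windows of 400 bp (7.50-fold) and, chosen after seeing the data, without read ends found in both samples (11.8-fold); the cause was not tested. With all reads counted the Myb locus had 3 regions in sample 1, the additional one at 20924201 to 20924450 in mm9 with 10 reads, of which 6 were distinct. The near Myb site was called in 0 of 7 alternatives in sample 2. Leaving out each sample in turn left 3 to 4 sites called. Locus density moved beyond its interval only at Hhex in lane 7 alone (0.813 times the genome average). The number of regions in the genome ran from 239 (lane 7 alone) to 10173 (genome average only) in sample 1, against 1619, and from 398 (only reads with no mismatch) to 2153 (genome average only) in sample 2, against 840. No paired analysis was possible because there is 1 group. Depth limits all results: an average window holds less than 1 read.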

Other observations

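The MEIS core TGACAG, the sequence that Meis1 and its relatives bind, was found at both Myb sites. At the near site it directly adjoins the pair of ETS cores, with 0 bases between, and at the far site it directly adjoins the GATA match AGATAA on the other strand, 6 bases before AGGAAG. The core occurs in 16.0% of sample 2 regions and in 12.9% of promoters. The MYB core (CAACNG or TAACNG) had 2 matches at the far Myb site, TAACAG and CAACTG, the latter being at the same time an E-box; it occurs in 33.1% of regions and 36.3% of promoters. Here too regions were searched only in covered bases and promoters in full sequence. No test was made of these matches.

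Among the further windows below the threshold, both with 6 reads in sample 1 lay close to the start of a lncRNA gene. The middle of the Myb window was 101 bp beyond the start of Gm33619, placed in mm8 by 1 read, and that of the Hhex window was 512 bp beyond the start of Gm32294, placed by 2 reads. The remaining window, beyond the 3′ end of Myb with 5 reads in sample 2, did not. Its middle lay at -97.0 kb from the nearest placed start, that of Gm33619. Starts are placed only where sample 2 has a read, so windows and starts are not independent. How often windows in general lie this close to a placed start was not determined.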
